A study of Mus musculus with 6 samples.

Results

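Disallowed genes are housekeeping or widely used genes whose expression is kept very low in mature pancreatic β cells. The 10 genes described here were listed by name from that class, and all 10 were found among the 55060 genes of the deposited table. They were *Ldha*, *Slc16a1*, *Acot7*, *Oat*, *Mgst1*, *Pdgfra*, *Igfbp4*, *Cxcl12*, *Smad3* and *Zfp36l1*. RNA was sequenced from islets of 12-week-old mice in 3 Ctrl and 3 cKO samples. In cKO mice, which carry *Ins2-cre* and *Parn f/f*, the Cre recombinase driven by the *Ins2* promoter deletes the loxP-flanked exon 7 of *Parn*, a poly(A)-specific ribonuclease, in β cells. The Ctrl mice were *Parn f/f* animals and other littermates, and the labels do not give which Ctrl sample had which genotype, whether it carried Cre, the sex, or whether animals were pooled. Where separate samples came from is not stated beyond this, so each p-value measures the spread between these samples.

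A β cell releases insulin when the oxidation of glucose in its mitochondria raises ATP. Lactate dehydrogenase A and the lactate and pyruvate carrier MCT1, the products of *Ldha* and *Slc16a1*, would let pyruvate leave that route as lactate or let pyruvate from muscle enter the cell during exercise, and both are silenced as β cells mature. Other disallowed genes encode enzymes of other routes, growth factor receptors and signalling proteins. Repression is known to involve DNA and histone methylation, RFX6 and microRNAs, with *Slc16a1* being a known target of miR-29. Most of these genes are well expressed in the other cells that isolated islets hold, such as fibroblasts, endothelial cells, leukocytes and remaining acinar tissue.

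Promoters of *Ldha* and *Slc16a1* are shown because the lactate genes are the best known of the class and had the highest ratios of Ctrl replicate 1 to the other Ctrl samples among the 10 genes. Capitals mark ACGTG, a form of the core of the hypoxia response element, on either strand (ACGTG or CACGT, counted where they overlap). Other forms, such as GCGTG, are not marked, and whether any marked site acts in hypoxia was not tested. The sequences are the 250 bases before a RefSeq start site of each gene (GRCm38.p6), on chr7:46845554-46845803 (plus strand) for *Ldha* and chr3:104638414-104638663 (plus strand) for *Slc16a1*.
Ldha: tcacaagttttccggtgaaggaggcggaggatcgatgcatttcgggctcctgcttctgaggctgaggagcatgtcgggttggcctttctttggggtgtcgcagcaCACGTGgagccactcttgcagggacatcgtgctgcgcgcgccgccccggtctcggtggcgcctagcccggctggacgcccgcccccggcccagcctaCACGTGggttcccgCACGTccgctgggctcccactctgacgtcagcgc
Slc16a1: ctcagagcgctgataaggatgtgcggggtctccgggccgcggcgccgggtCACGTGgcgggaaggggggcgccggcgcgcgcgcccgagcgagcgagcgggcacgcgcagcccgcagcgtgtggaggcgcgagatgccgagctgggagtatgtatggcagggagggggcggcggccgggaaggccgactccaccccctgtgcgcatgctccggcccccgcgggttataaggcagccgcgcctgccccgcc
The *Ldha* stretch held 3 separate runs of these letters, 2 of them the palindrome CACGTG, and the *Slc16a1* stretch held 1 such palindrome. Of 32851 RefSeq promoters of 27025 genes, 16.6% held ACGTG or CACGT within the same 250 bases. The promoters of the other 8 genes did not contain these letters in this window. The RefSeq table holds 2 promoters of *Ldha*, and the first is shown because it alone held these letters. This *Ldha* promoter had 25 CpG dinucleotides and *Slc16a1* 37, more than 89.3% and 97.8% of all promoters, and the second of *Ldha* had 9, more than 59.7%, whereas *Pdgfra* had 4 and *Acot7* 6, against a median of 6 over all promoters.

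MicroRNAs pair with target mRNAs through their seed, bases 2 to 8. The mature miR-29a-3p is shown with its seed in capitals, followed by the sites in the 3′ untranslated regions (GENCODE M21, longest basic transcript) that match it, with the 7 matching bases TGGTGCT in capitals and the DNA letters of the mRNA strand.
mmu-miR-29a-3p: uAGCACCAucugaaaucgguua
Slc16a1: tagtctaccagTGGTGCTcagtgcagacag
Pdgfra: tgagaccacaaTGGTGCTgttgaatgaagg
Igfbp4: catgtgtcaccTGGTGCTcactggtgctct
Zfp36l1: agacttgatttTGGTGCTaaagttccccaa
These sites lie on chr3:104655785-104655814 (plus strand), chr5:75196354-75196383 (plus), chr11:99053212-99053241 (plus) and chr12:80108743-80108772 (minus) of GRCm38. *Slc16a1* and *Zfp36l1* held 1 match each, *Pdgfra* and *Igfbp4* 2 each (the second of *Igfbp4* follows in lower case within the stretch shown), and the other 6 genes none. Among 3′ untranslated regions within 10% of the same length, 24.4% held a match at the length of *Slc16a1*, 26.5% at that of *Pdgfra*, 24.9% at that of *Igfbp4* and 15.4% at that of *Zfp36l1*. miR-29b-3p and miR-29c-3p carry the same seed. The gene of miR-29a was listed at 1.30 FPKM in Ctrl replicate 1, 0.647 in cKO replicate 1 and 0 elsewhere. In Ctrl replicate 1, 1 read per kilobase is 0.0573 FPKM. MicroRNA genes are far shorter than a kilobase, so such values rest on very few reads. Those of miR-29b and miR-29c were at 0 in all 6 libraries, which were made from mRNA and do not measure mature microRNAs.

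Expression was given as FPKM, fragments per kilobase of gene divided by a size for each library, so levels of different genes can be compared. Read back from FPKM, this size was 15731223 to 18085944. It was below the reads counted on genes in every Ctrl sample and above them in every cKO sample. Those reads came to 16289408 to 17944775 a sample. The values of the 10 genes rested on 12 reads (*Pdgfra*, Ctrl replicate 2) to 1094 reads (*Ldha*, Ctrl replicate 1). *Parn* was measured at 6.64, 8.34 and 7.38 FPKM in Ctrl islets against 4.97, 4.61 and 6.15 in cKO islets, so that the genotypes did not overlap. Its log2 fold change was -0.44 (SE 0.131, adjusted p = 0.545 by limma). The β-cell hormone genes *Ins1* and *Ins2* were the mark of the tissue, with means of 68370 and 145000 FPKM, and *Gcg* and *Sst* of α and δ cells were at 12160 and 5999 FPKM. Ctrl replicate 1 stood apart on the first principal component (34.7% of the variance), at -52.4 against -2.92 to 26.6 for the other samples. Its 10 macrophage markers summed to 844.8 FPKM, against 124.4 and 111.1 in Ctrl replicates 2 and 3 and 156.6 to 219 in cKO, and each of the 10 was highest there. Its 4 neutrophil markers summed to 738.5 FPKM, against 0.936 and 1.75 in the other Ctrl samples and 1.64, 29.4 and 44.9 in cKO. Results are therefore given with and without it. Y-linked genes were at 0 in Ctrl replicate 3 and cKO replicate 2 and summed to 2.99 to 28.7 FPKM in the others, so each genotype held samples with and without them.

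All 10 genes were low in islets relative to the hormones but were not absent. *Oat* (8.12 FPKM) and *Ldha* (8.02) had the highest means over the 6 samples, followed by *Igfbp4* (5.87), *Mgst1* (3.81), *Acot7* (3.42), *Zfp36l1* (2.96), *Cxcl12* (1.66), *Smad3* (1.14), *Slc16a1* (0.548) and *Pdgfra* (0.270). In this order the 6 values of each gene overlapped with those of the next. Within each sample, however, *Zfp36l1* was above *Cxcl12*, *Cxcl12* above *Smad3* and *Smad3* above *Slc16a1*. The other neighbours changed order between samples. Among the 21211 genes that averaged 0.1 FPKM or more, *Oat* was above 78.0%, *Ldha* above 77.7%, *Zfp36l1* above 56.8%, *Slc16a1* above 27.0% and *Pdgfra* above 15.6%. Thus 6 of the 10 lay above the median gene of these whole-islet samples. The level within β cells alone was not measured, and in bulk tissue fewer cells of a type cannot be told apart from less RNA per cell.

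**Figure D1:**
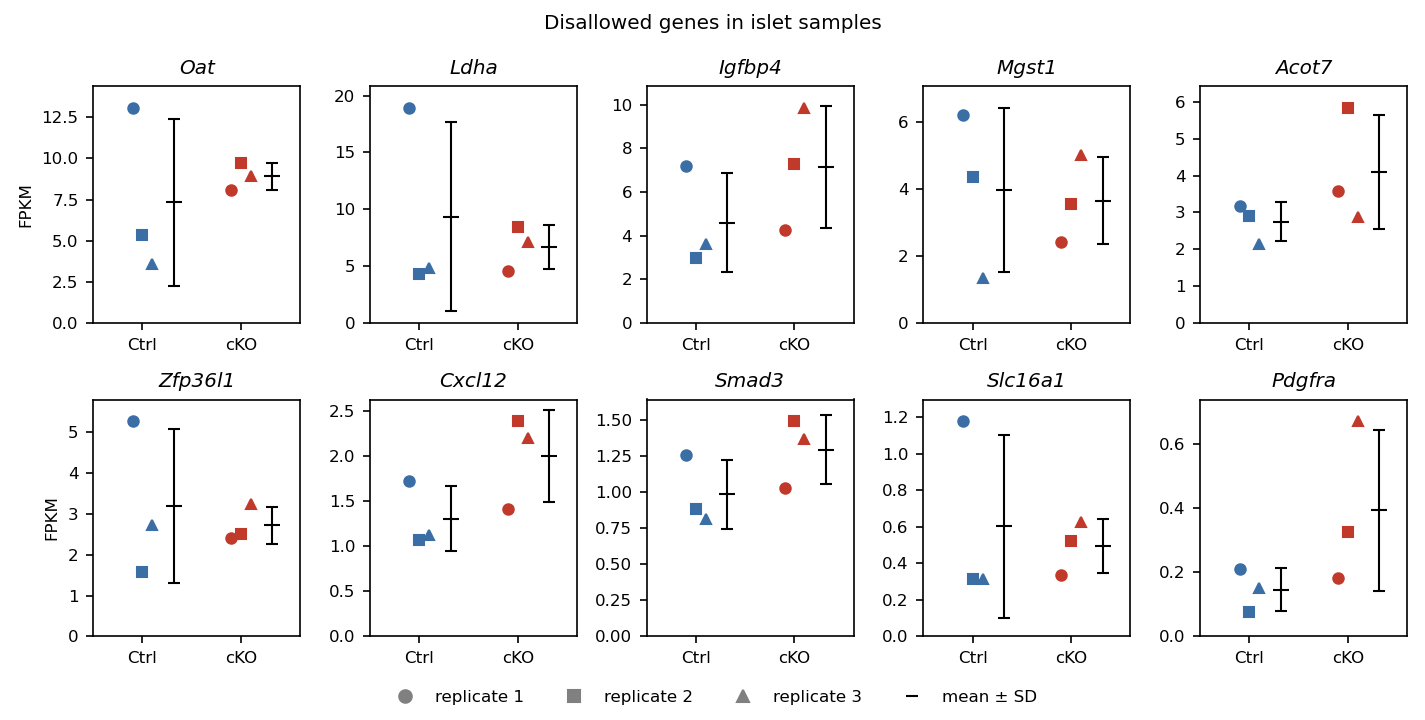
FPKM of the 10 genes in each islet sample (3 Ctrl, blue; 3 cKO, red), with a symbol for each replicate and the group mean ± SD in black, on a linear axis for each gene. Ctrl replicate 1 (circle) was the highest of all 6 samples for *Oat*, *Ldha*, *Mgst1*, *Zfp36l1* and *Slc16a1*, and the groups overlapped for every gene.

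The study asked how islet expression differs between Ctrl and cKO. Genotypes were compared with limma on log2(FPKM + 1), on which a change at a low FPKM appears smaller than it is. None of the 10 genes passed an adjusted p of 0.05, the smallest adjusted p among them being 0.711 (limma), nor was any past an unadjusted p of 0.05, and in none did all cKO samples lie above or below all Ctrl samples. Of all genes tested, 0.0% passed the adjusted threshold, while 919 (4.33%) were higher and 651 (3.07%) lower in cKO at an unadjusted p under 0.05. This split depended on scaling, with 1801 higher and 315 lower after conversion to TPM, which sets the same total in each sample, and 1500 and 328 when reads recovered from FPKM were tested with voom in limma. Without overlap between the genotypes, 7.11% of genes were higher and 6.03% lower. Without cKO replicate 3, 402 genes were lower. The log2 fold change was above 0 in 7 of the 10 genes, with a median of 0.24 beside -0.01 over all genes tested. Without Ctrl replicate 1, it was above 0 in all 10, with a median of 0.40 beside a median of all genes within 0.01 of 0. In that comparison 3 of the 10 genes were higher at an unadjusted p under 0.05, where 5.9% of all genes tested were higher and 5.53% lower, and 0 passed the adjusted p (limma). In 6 of the 10 genes all 3 cKO samples then lay above both remaining Ctrl samples, which 14.4% of all genes did, and in 0 they lay below, which 14.7% did. Ctrl replicate 1 was 1.26 to 4.17 times the mean of the other Ctrl samples in the 10 genes. Leaving it out therefore had to raise every estimate. Over all genes tested the median of this ratio, taken on FPKM + 1, was 1.0. The shares of all genes are therefore not a matched background for these counts. Leaving out cKO replicate 1 put 2 of the 10 genes (*Cxcl12* and *Pdgfra*) past an unadjusted p of 0.05, and leaving out cKO replicate 3 put 1 (*Acot7*), all higher in cKO, where 4.11% and 3.6% of all genes were higher.

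**Figure D2:**
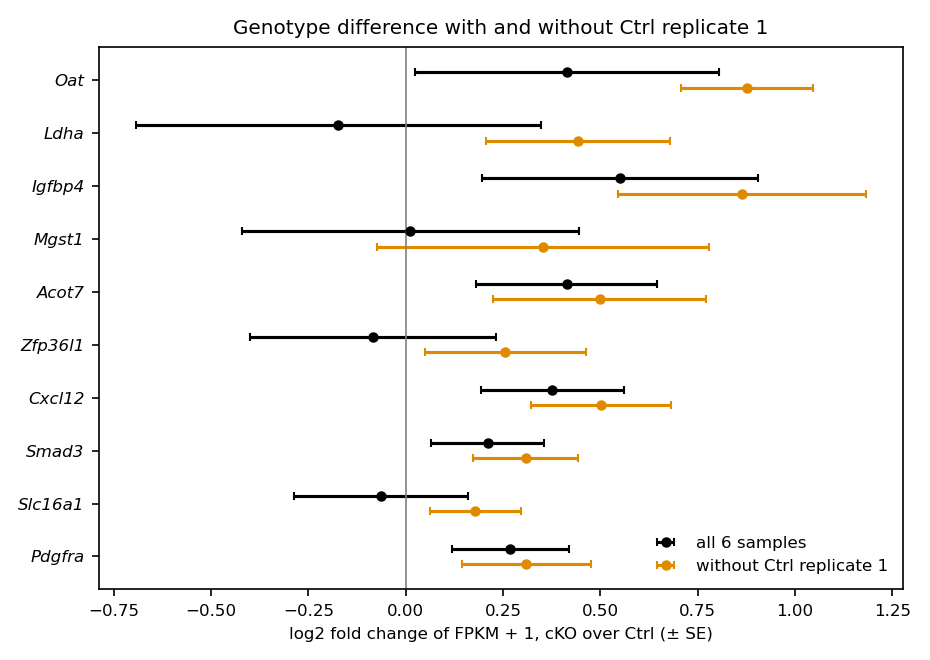
Log2 fold change of FPKM + 1, cKO over Ctrl, for each gene with its standard error, from all 6 samples (black) and without Ctrl replicate 1 (orange). Without that sample every estimate lay to the right of 0, and those of *Ldha*, *Slc16a1* and *Zfp36l1* changed sign.

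*Ldha* (ENSMUSG00000063229, chr7:46841475-46855627 of GRCm38), which encodes the lactate dehydrogenase subunit that favours lactate formation, was at 18.9, 4.28 and 4.81 FPKM in Ctrl replicates 1, 2 and 3 and at 4.61, 8.39 and 7.10 in cKO. Ctrl replicate 1 was far above all other samples, cKO replicates 2 and 3 were above the other Ctrl samples, and cKO replicate 1 lay between them. The means were 9.35 ± 8.32 (SD, n = 3) in Ctrl and 6.70 ± 1.92 in cKO. The log2 fold change was -0.17 (SE 0.520, adjusted p = 0.962 by limma) and, without Ctrl replicate 1, 0.44 (SE 0.237, adjusted p = 0.550 by limma). *Slc16a1* (ENSMUSG00000032902, chr3:104638668-104658462) was also highest in Ctrl replicate 1, at 1.18, 0.316 and 0.312 FPKM in Ctrl and 0.334, 0.520 and 0.625 in cKO. All cKO samples were above Ctrl replicates 2 and 3, and cKO replicate 1 only slightly, on 26 reads against 22 and 23. The log2 fold change of *Slc16a1* was -0.06 (SE 0.223, adjusted p = 0.968 by limma), or 0.18 (0.116, 0.592) without Ctrl replicate 1. Without cKO replicate 1 the values were 0.04 for *Ldha* and 0.01 for *Slc16a1*. For both lactate genes the difference between the Ctrl samples was larger than that between the genotypes, with Ctrl replicate 1 at 4.17 times the mean of the other Ctrl samples for *Ldha* and 3.75 times for *Slc16a1*.

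The other genes of lactate and pyruvate handling were mostly not split this way. *Ldhb*, the subunit that favours pyruvate, was at 6.57, 9.76 and 9.65 FPKM in Ctrl and 7.90, 7.58 and 7.57 in cKO, with the lowest value in Ctrl replicate 1 and a log2 fold change of -0.13 (SE 0.15, adjusted p = 0.868 by limma), or -0.30 and past an unadjusted p of 0.05 without Ctrl replicate 1 (adjusted p = 0.275 by limma). Its mean over all samples, 8.17 FPKM, was close to that of *Ldha*. *Ldhd*, the mitochondrial D-lactate dehydrogenase, was at 3.72, 3.88 and 3.85 FPKM in Ctrl and 3.58, 2.63 and 3.57 in cKO, without overlap. Its log2 fold change was -0.18 (adjusted p = 0.820 by limma). *Ldhc*, known from testis, was at 0.327 in Ctrl replicate 1, 0.0700 in cKO replicate 3 and 0 in the others. *Bsg*, the chaperone that brings MCT1 to the membrane, was abundant at 236.8 to 293.8 FPKM. Of the other monocarboxylate carriers, *Slc16a7* was at 0.247 to 0.345 FPKM and *Slc16a3*, which exports lactate, at 0.787, 0.155 and 0.181 in Ctrl and 0.0749, 0.108 and 0.301 in cKO, again highest in Ctrl replicate 1. Of the 22 genes of this list that were tested, 0 were higher and 1 was lower in cKO at an unadjusted p under 0.05. This was *Mpc1*, a subunit of the mitochondrial pyruvate carrier, at 4.27, 5.37 and 4.10 FPKM in Ctrl and 2.35, 3.54 and 3.16 in cKO (log2 fold change -0.48, limma adjusted p = 0.562). Its partner subunit *Mpc2* was at 5.04 to 5.79 FPKM in all samples. Without overlap between the genotypes, 0 of the 23 listed genes were higher and 3 were lower in cKO, beside 7.11% and 6.03% of all genes. Of 9 genes of the mitochondrial NADH shuttles, 0 passed in either direction.

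**Figure D3:**
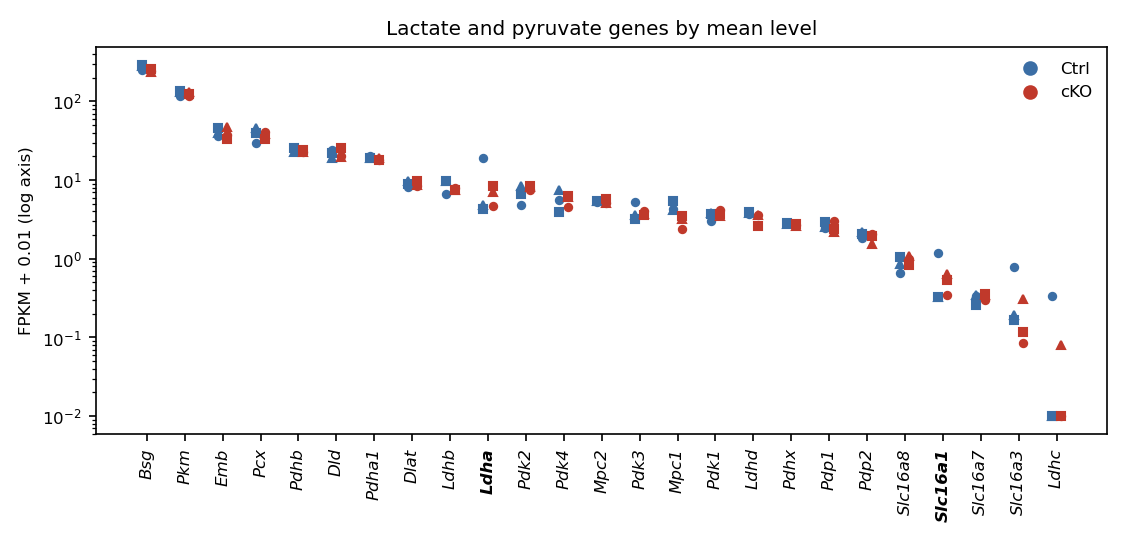
FPKM + 0.01 (log axis) of *Ldha*, *Slc16a1* and the other lactate and pyruvate genes in each sample, ordered by mean level, with circles, squares and triangles for replicates 1, 2 and 3. *Ldha*, *Slc16a1*, *Slc16a3*, *Ldhc*, *Pdk3* and *Pdha1* had their highest value in Ctrl replicate 1, in *Pdha1* by little (20.3 against 19.2 FPKM in the next sample).

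Among the disallowed enzymes of other routes, *Oat* (ENSMUSG00000030934, chr7:132557478-132576398), the mitochondrial ornithine aminotransferase, was at 13.1, 5.33 and 3.57 FPKM in Ctrl and 8.08, 9.72 and 8.90 in cKO. The cKO samples were close together and lay above Ctrl replicates 2 and 3 but below Ctrl replicate 1. The means were 7.33 ± 5.07 (SD, n = 3) and 8.90 ± 0.822, with a log2 fold change of 0.41 (SE 0.390, adjusted p = 0.838 by limma). Without Ctrl replicate 1 the cKO mean was 2.0 times that of the other Ctrl samples, with a log2 fold change of 0.88 (SE 0.169, adjusted p = 0.224 by limma), the smallest p of the 10 genes in that comparison. Without Ctrl replicate 3, the lowest sample, it was 0.065. *Oat* shares its position with *Fgfr2* on the same strand, which was at 0.0677 to 0.477 FPKM. Of 11 other genes of ornithine and proline metabolism tested, 0 passed an unadjusted p of 0.05. *Acot7* (ENSMUSG00000028937, chr4:152178134-152271855), a cytosolic acyl-CoA thioesterase, was at 3.18, 2.90 and 2.15 FPKM in Ctrl and 3.59, 5.85 and 2.86 in cKO. It was the gene least raised in Ctrl replicate 1, at 1.26 times the other Ctrl samples, and cKO replicate 2 alone was well above the rest. Its log2 fold change was 0.41 (SE 0.233, adjusted p = 0.765 by limma), and it was 0.18 without cKO replicate 2. Among 9 other acyl-CoA thioesterases tested, 0 passed in either direction. *Mgst1* (ENSMUSG00000008540, chr6:138140316-138156755), a membrane-bound glutathione transferase, was at 6.21, 4.36 and 1.34 FPKM in Ctrl and 2.40, 3.54 and 5.0 in cKO. Its samples of both genotypes were intermixed, with a log2 fold change of 0.01 (SE 0.432, adjusted p = 0.998 by limma), or -0.46 without Ctrl replicate 3 and 0.35 without Ctrl replicate 1. Of its family, *Mgst3* was at 9.86 to 14.2 FPKM and *Mgst2* at 0.480 in Ctrl replicate 1 and at most 0.0597 elsewhere. In the list of this family and of glutathione enzymes 2 of 10 genes were higher in cKO at an unadjusted p under 0.05, neither past the adjusted p. *Ptges*, the prostaglandin E synthase of the same family, was at 3.6, 3.46 and 2.81 FPKM in Ctrl and 5.14, 4.58 and 5.84 in cKO, without overlap (log2 fold change 0.53, limma adjusted p = 0.445). *Gclc*, the catalytic subunit of the enzyme that starts glutathione synthesis, was the other (log2 fold change 0.24, limma adjusted p = 0.659).

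The ligands and receptors of the class are known from mesenchymal cells. *Cxcl12* (ENSMUSG00000061353, chr6:117168535-117181367), a chemokine, was at 1.72, 1.07 and 1.12 FPKM in Ctrl and 1.42, 2.39 and 2.20 in cKO, and among the cKO samples only replicate 1 was below Ctrl replicate 1. Its log2 fold change of 0.38 (SE 0.183, adjusted p = 0.711 by limma) had the smallest p of the 10 genes. It was 0.50 (SE 0.181, adjusted p = 0.408 by limma) without Ctrl replicate 1. Its receptor gene *Cxcr4* was at 9.45 FPKM in Ctrl replicate 1 and 2.04 to 2.55 in the other samples, and its scavenger receptor gene *Ackr3* at 3.12, 1.99 and 1.47 in Ctrl and 1.04, 2.08 and 2.97 in cKO. *Igfbp4* (ENSMUSG00000017493, chr11:99041244-99054392), a secreted protein that binds insulin-like growth factors, was at 7.20, 2.98 and 3.61 FPKM in Ctrl and 4.27, 7.27 and 9.87 in cKO. The highest value was in cKO replicate 3, and Ctrl replicate 1 nearly equalled cKO replicate 2. The log2 fold change of *Igfbp4* was 0.55 (SE 0.355, adjusted p = 0.809 by limma), the largest of the 10 with a pseudocount of 1, whereas with a pseudocount of 0.1 *Pdgfra* was larger (0.92 against 0.65). The value of *Igfbp4* was 0.31 without cKO replicate 3, 0.34 without Ctrl replicate 2, and 0.86 (SE 0.32, adjusted p = 0.418 by limma) without Ctrl replicate 1. In the insulin-like growth factor list 2 of 13 genes were higher in cKO at an unadjusted p under 0.05 and 0 lower. *Igfbp5*, a related binding protein that is not a member of the class, was at 7.94, 7.80 and 3.10 FPKM in Ctrl and 20.9, 27.5 and 17.7 in cKO, without overlap (log2 fold change 1.72, limma adjusted p = 0.379). *Igf2r*, the receptor that clears IGF2, was at 9.27, 7.90 and 9.75 FPKM in Ctrl and 14.3, 11.3 and 12.4 in cKO (log2 fold change 0.45, limma adjusted p = 0.481). *Pdgfra* (ENSMUSG00000029231, chr5:75152292-75198215), the platelet-derived growth factor receptor of fibroblasts, was the lowest of the 10 genes at 0.212, 0.0761 and 0.15 FPKM in Ctrl and 0.182, 0.327 and 0.673 in cKO. The values rested on 12 to 122 reads, and cKO replicates 2 and 3 were above all Ctrl samples. Its log2 fold change was 0.27 (SE 0.15, adjusted p = 0.761 by limma), and the ratio of the group means in FPKM was 2.70, a difference in size that comes from the pseudocount at this level. Without cKO replicate 3, the highest sample, the log2 fold change was 0.13. *Pdgfrb*, the related receptor of fibroblasts and pericytes, was at 2.29, 2.68 and 2.83 FPKM in Ctrl and 2.74, 3.94 and 3.53 in cKO (log2 fold change 0.28, limma adjusted p = 0.714).

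*Smad3* and *Zfp36l1* act inside the cell. *Smad3* (ENSMUSG00000032402, chr9:63646767-63757994), which carries TGF-β signals to the nucleus, was at 1.26, 0.883 and 0.813 FPKM in Ctrl and 1.03, 1.49 and 1.37 in cKO. All cKO samples were above Ctrl replicates 2 and 3, and cKO replicate 1 was below Ctrl replicate 1. The log2 fold change was 0.21 (SE 0.145, adjusted p = 0.820 by limma) and 0.31 (SE 0.134, adjusted p = 0.482 by limma) without Ctrl replicate 1. *Smad2* and *Smad4* were higher in level, at 6.22 to 7.60 and 12.01 to 14.9 FPKM, and of 19 other genes of this pathway 0 passed an unadjusted p of 0.05. *Zfp36l1* (ENSMUSG00000021127, chr12:80107754-80113013) encodes a zinc finger protein that binds AU-rich elements and recruits deadenylases to destabilise mRNAs. It was at 5.27, 1.57 and 2.73 FPKM in Ctrl and 2.42, 2.50 and 3.24 in cKO, with the highest and lowest values both in Ctrl. Its log2 fold change was -0.08 (SE 0.316, adjusted p = 0.971 by limma), or 0.26 (SE 0.207, adjusted p = 0.673 by limma) without Ctrl replicate 1. It overlaps *Gm26669* on the opposite strand, which was at 0 to 0.315 FPKM. The 3′ untranslated region of *Zfp36l1* held 3 copies of TATTTAT, the core of such elements, which 39.3% of regions of like length held at least once. *Smad3* held 2 copies, *Acot7*, *Igfbp4* and *Cxcl12* 1 each, and the remaining disallowed genes none. Of regions of like length, 58.2%, 8.61%, 52.8% and 68.8% held it for these genes in turn. The *Zfp36l1* relatives *Zfp36* and *Zfp36l2* were more abundant, at 24.7 to 51.4 and 15.3 to 18.1 FPKM. Of 7 genes of this family and other AU-rich element binders 0 passed in either direction.

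Over the 10 genes together, FPKM summed to 58.3, 23.8 and 20.6 in Ctrl replicates 1, 2 and 3 and to 28.3, 42.0 and 41.8 in cKO replicates 1, 2 and 3. Ctrl replicate 1 was at least 2-fold above the mean of the other Ctrl samples in 6 of the 10, against 12.7% of all genes tested, and the highest of all samples in 5, against 22.1%. Replicate 1 was the lowest of the cKO samples in 9 of the 10, with *Acot7* as the exception, against 37.1% of all genes. Both other cKO samples lay above Ctrl replicates 2 and 3 in 7 of the 10, against 21.5%. These counts were made after the values were seen.

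A wider list of 26 further disallowed genes gave similar sums, at 93.5, 36.7 and 32.5 FPKM in Ctrl and 38.6, 56.9 and 62.5 in cKO. Ctrl replicate 1 was at least 2-fold above the other Ctrl samples in 14 of the 26, beside 12.7% of all genes tested. Of the 26, 3 were higher in cKO and 0 lower at an unadjusted p below 0.05 (4.33% and 3.07% of all genes), with a median log2 fold change of 0.07, and 7 were higher and 0 lower without Ctrl replicate 1 (5.9% and 5.53% of all genes). The 3 calls became 0 without Ctrl replicate 2, Ctrl replicate 3 or cKO replicate 2, and 1 without cKO replicate 1. The 3 genes were *Itih5*, *Tst* and *Ndrg2*. *Itih5*, a matrix-associated inhibitor heavy chain, was at 0.472, 0.410 and 0.380 FPKM in Ctrl and 0.605, 1.5 and 1.43 in cKO (log2 fold change 0.59, limma adjusted p = 0.561). *Tst*, the mitochondrial thiosulfate sulfurtransferase, was at 1.07, 0.764 and 0.437 in Ctrl and 1.44, 1.56 and 1.19 in cKO (log2 fold change 0.46, limma adjusted p = 0.613). *Ndrg2* was at 2.63, 2.36 and 1.72 in Ctrl and 3.18, 4.18 and 2.93 in cKO (log2 fold change 0.45, limma adjusted p = 0.620). In these 3 genes the genotypes did not overlap. *Hk1*, the low-Km hexokinase, was at 1.61, 0.797 and 1.35 FPKM in Ctrl and 1.14, 1.92 and 1.59 in cKO, and *Rest*, the repressor of neuronal genes, at 0.889, 0.238 and 0.308 in Ctrl and 0.347, 0.343 and 0.475 in cKO, so that neither parted the genotypes.

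Markers of other cells also differed between the samples. The sum of the macrophage markers was highest in Ctrl replicate 1 and next in cKO replicates 3, 2 and 1, with Ctrl replicates 2 and 3 lowest. Below Ctrl replicate 1, not every single marker had this order. *Lyz2*, chosen after its values were seen, gave 539.1 FPKM of the sum in Ctrl replicate 1. *Adgre1* was at 13.7, 1.79 and 1.11 FPKM in Ctrl and 1.92, 2.74 and 2.80 in cKO. The 12 stroma markers summed to 69.0, 46.6 and 42.6 FPKM in Ctrl and 56.8, 119.8 and 109.6 in cKO. All 12 had a log2 fold change above 0, and 5 (*Col3a1*, *Col6a1*, *Lum*, *Dpt* and *Thy1*) passed an unadjusted p of 0.05. *Col3a1* was at 3.02, 1.63 and 3.18 FPKM in Ctrl and 2.78, 11.3 and 10.6 in cKO, and *Col1a1*, which did not pass, at 1.11, 0.484 and 1.26 against 0.989, 3.09 and 3.18. cKO replicates 2 and 3 thus held the highest sums of stroma markers, and cKO replicate 1 lay within the Ctrl range. In *Pdgfra*, *Cxcl12*, *Igfbp4* and *Smad3* cKO replicates 2 and 3 were also above all Ctrl samples. The share of all genes with this order was not counted. cKO replicate 1 lay within the Ctrl range in every disallowed gene except *Acot7*. The upper end of that range was Ctrl replicate 1 in each gene. All cKO samples were above Ctrl replicates 2 and 3 in 6 of the 10 genes, against 14.4% of all genes tested. The 10 endothelial markers summed to 168.9, 151.2 and 170.5 FPKM in Ctrl and 169.5, 187.1 and 209.1 in cKO, and Ctrl replicate 3 was as high as Ctrl replicate 1. Of these markers 7 had a log2 fold change above 0, 2 of them past an unadjusted p of 0.05, and 3 below 0. *Pecam1* was at 8.36, 9.15 and 8.74 FPKM in Ctrl and 8.53, 13.8 and 13.1 in cKO, *Cdh5* at 5.85, 5.73 and 6.61 against 6.68, 8.54 and 9.05, and *Esm1*, chosen after its values were seen, at 26.8, 30.7 and 37.1 against 25.6, 25.2 and 26.8. Acinar markers ranged widely in both genotypes, from 7873 to 21250 FPKM in Ctrl and from 9714 to 35640 in cKO, with *Prss2* at 1302 to 5189. The sum of the 8 β-cell markers was 235600 to 275900 FPKM in Ctrl and 195100 to 217200 in cKO. Nearly all of it came from *Ins1* and *Ins2*. *Ins2* was at 154900 to 178700 FPKM in Ctrl and 109000 to 132900 in cKO, whereas *Ins1* overlapped (61860 to 74400 against 63960 to 69820). Without overlap, 1 of the 8 was higher and 2 were lower in cKO, beside 7.11% and 6.03% of all genes. At an unadjusted p under 0.05, 0 were higher and 1 was lower. The part of these cells in the levels of the disallowed genes was not tested.

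**Figure D4:**
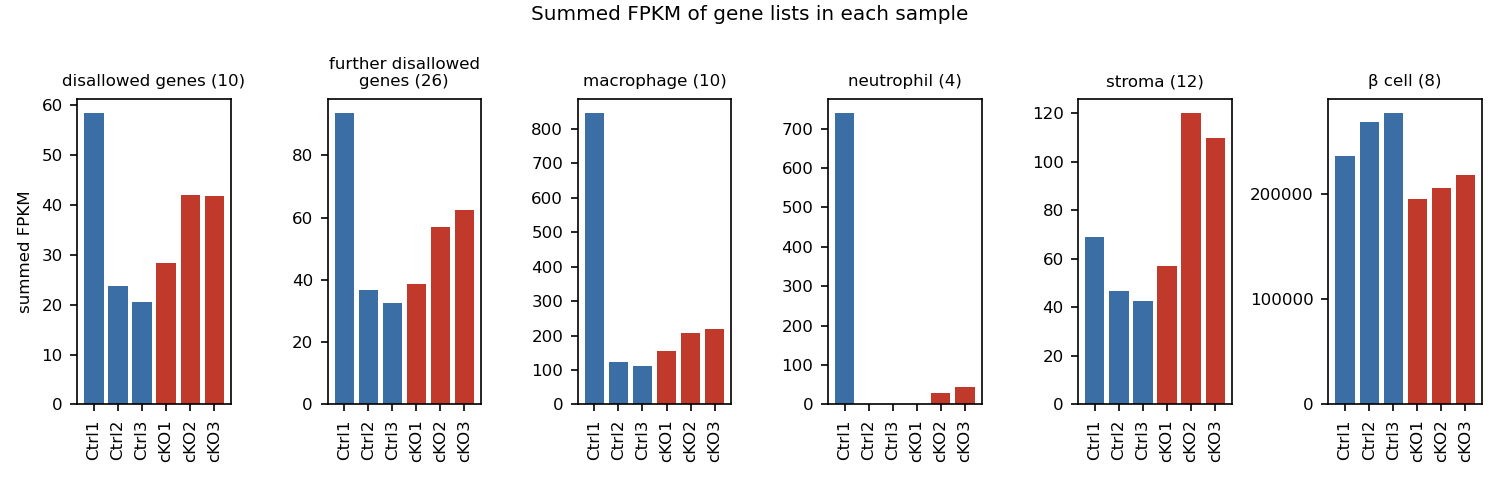
Summed FPKM in each sample (bars, blue Ctrl, red cKO, each axis from 0) of the 10 disallowed genes, 26 further disallowed genes and the macrophage, neutrophil, stroma and β-cell markers, with the number of genes in brackets. The disallowed genes were highest in Ctrl replicate 1 (58.3 FPKM) and lowest in Ctrl replicates 2 and 3 (23.8 and 20.6), as were the macrophage markers, whereas the stroma markers were highest in cKO replicates 2 and 3.

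A list of factors linked to the repression of the class, such as *Rfx6*, was also compared. Of 13 tested, 1 was higher and 0 were lower in cKO at an unadjusted p under 0.05. The 1 was *Rfx3*, a relative of *Rfx6*, at 2.59, 1.99 and 2.83 FPKM in Ctrl and 3.40, 3.80 and 3.27 in cKO, without overlap (log2 fold change 0.38, limma adjusted p = 0.590). *Rfx6*, which maintains the mature state of β cells, was at 21.3, 27.3 and 37.4 FPKM in Ctrl and 19.4, 20.7 and 24.5 in cKO (log2 fold change -0.37 with an SE of 0.203, adjusted p = 0.759 by limma). Its highest cKO value exceeded the lowest of Ctrl, which was that of Ctrl replicate 1, and without this sample the log2 fold change was -0.55, past an unadjusted p of 0.05 (adjusted p = 0.355 by limma). The DNA methyltransferase gene *Dnmt3a* was at 6.43, 7.24 and 9.82 FPKM in Ctrl and 8.22, 6.45 and 7.92 in cKO, and *Dicer1*, which matures microRNAs, at 5.11, 5.21 and 6.51 against 6.11, 4.68 and 5.92.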

How the data were processed

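Islet RNA from 3 Ctrl and 3 cKO samples was used. The authors extracted RNA with TRIzol, used a SMARTER kit for mRNA libraries, and tested genotypes with DESeq2. The aligner, the counting tool and the annotation release are not given in the sources used here. The authors deposited FPKM per gene and sample with GRCm38 coordinates, scaled by gene length and a size for each library, and replicates were kept apart. Every value was a whole number of reads within 0.05 reads, so these sizes and the reads were read back. The sizes are not plain read totals, since the reads on genes exceeded them in every Ctrl sample.

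Log2(FPKM + 1) of the 21211 genes averaging 0.1 FPKM or more was compared with limma 3.58.1 in R 4.3.3 (trended empirical Bayes, two-sided tests, Benjamini-Hochberg over all genes tested). FPKM are not counts, so DESeq2 was not used here. The code was tested on simulated data. Figures used matplotlib 3.10.9. The 10 genes and all lists were chosen with earlier results of these data known, so counts over a list are descriptions. The genes named were the 10, *Parn*, fixed partners, list genes at an unadjusted p under 0.05 (at most 4 per list with values), and defining cell markers. *Mpc2*, *Pdk3*, *Pdha1*, *Esm1*, *Lyz2*, *Mki67*, *Dnmt3a*, *Dicer1*, the miR-29 genes and the overlapping genes were named after their values were seen. Promoter and microRNA sequences are from RefSeq (GRCm38.p6, all 10 genes matched) and untranslated regions from GENCODE M21. Alternatives varied the pseudocount, filter, scaling, weights, trend, replicate block and samples. A gene of the lists that was tested is not reported here.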

Additional observations from a re-analysis of the deposited data

How the results depend on the processing

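*Parn* was lower in cKO at an unadjusted p under 0.05 in 17 of 17 alternatives (log2 fold change -0.54 to -0.35). Of 185 values of *Parn* and the 10 disallowed genes under the alternatives, 153 kept their sign and their side of that p, 16 changed sign and 16 passed it in addition. *Acot7*, *Pdgfra*, *Igfbp4*, *Cxcl12*, *Oat* and *Smad3* were above 0 in every alternative run, and *Cxcl12* passed in 6 of 17. *Zfp36l1* changed sign with TPM (0.031), *Ldha*, *Slc16a1* and *Zfp36l1* with sample weights (0.225, 0.093 and 0.23), and *Slc16a1* and *Zfp36l1* with voom on the reads read back (0.040 and 0.0051). The cause of these changes was not tested. Leaving out each sample in turn gave -0.52 to 0.44 for *Ldha*, -0.19 to 0.18 for *Slc16a1*, -0.39 to 0.26 for *Zfp36l1* and -0.46 to 0.35 for *Mgst1*, the last turning negative without Ctrl replicate 3 or without cKO replicate 3 (-0.19). Leaving out cKO replicate 1 gave 0.04 for *Ldha* and 0.01 for *Slc16a1*. Leaving out a sample gave 0 to 3 disallowed genes, 0 to 7 further disallowed genes and 7 to 24 role-list genes higher, 0 to 14 role-list genes lower, and 709 to 1251 higher and 402 to 1173 lower among all genes, with 0 to 1 at an adjusted p under 0.05 (limma). In each the upper end was without Ctrl replicate 1. The lower ends were without Ctrl replicate 2 (709), cKO replicate 3 (402), cKO replicate 1 (0 role-list genes lower), Ctrl replicate 2 or cKO replicate 3 (7 role-list genes higher), and 2 role-list genes were lower without cKO replicate 2 or 3. With all 6 samples these counts were 0, 3, 12, 4, 919, 651 and 0. TPM gave 1801 genes higher and 315 lower, 1 disallowed gene higher, and 22 role-list genes higher and 2 lower. Sample weights gave 1245 genes lower, 2 disallowed genes, 5 further disallowed genes higher and 12 role-list genes lower. Voom gave 1500 higher and 328 lower, 2 at an adjusted p under 0.05, and 2 disallowed, 5 further disallowed and 21 role-list genes higher. A mean FPKM of at least 1 left 2 role-list genes lower and left out *Slc16a1* and *Pdgfra*. Voom without Ctrl replicate 1, chosen after seeing the data, gave 54 genes at an adjusted p under 0.05, none of them a disallowed gene, 2066 genes higher, 5 disallowed, 12 further disallowed and 39 role-list genes higher and 8 lower, with 0.62 for *Ldha*, 0.70 for *Slc16a1* and 0.48 for *Zfp36l1*. Same-numbered samples did not deviate together (r = -0.171, -0.0219 and -0.0652), and a fit with the replicate number as a block gave 737 genes higher and 538 lower, 9 and 5 role-list genes, and 0 disallowed genes in either direction. Depth limits *Pdgfra* and *Slc16a1*, with 12 to 122 and 22 to 91 reads a sample.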

Other observations

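Genes that mark the maturity of β cells were also compared. Of 15 maturity genes, 1 was higher and 1 lower in cKO at an unadjusted p under 0.05 (4.33% and 3.07% of all genes). Without Ctrl replicate 1 these counts were 1 and 5 (5.9% and 5.53% of all genes). *Ucn3*, a peptide hormone gained late in β-cell maturation, was at 184.5, 283.6 and 297.7 FPKM in Ctrl and 155.7, 156.6 and 188.4 in cKO (log2 fold change -0.58, limma adjusted p = 0.597). *Pcsk1*, the prohormone convertase that opens proinsulin processing, was at 128.2, 144.6 and 105.4 FPKM in Ctrl and 158, 170.6 and 187 in cKO (log2 fold change 0.45, limma adjusted p = 0.546). In a separate list of β-cell immaturity, 12 genes were tested, and 1 was higher and 1 lower in cKO at an unadjusted p under 0.05. The lower gene of this immaturity list was *Gast*, the gastrin gene. It was at 1.12, 1.24 and 0.261 FPKM in Ctrl and 0.371, 0.125 and 0.12 in cKO (log2 fold change -0.60, limma adjusted p = 0.662).

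Of 21 genes of the hypoxia response, to which *Ldha* also belongs, 2 were higher and 1 lower in cKO at an unadjusted p under 0.05. The glucose transporter gene *Slc2a1* was at 5.41, 3.92 and 3.94 FPKM in Ctrl and 5.02, 7.35 and 9.32 in cKO (log2 fold change 0.58, limma adjusted p = 0.640). *Pfkfb4*, a regulator of glycolysis, was at 2.72, 2.11 and 1.54 against 3.06, 3.89 and 3.58 (0.54, limma adjusted p = 0.546), and *Egln3*, an oxygen sensor, at 0.689, 0.334 and 0.497 against 0.171, 0.259 and 0.145 (-0.33, limma adjusted p = 0.626). Of 9 cell-cycle genes, 8 had their highest value in Ctrl replicate 1, against 22.1% of all genes tested. *Mki67* was at 3.85 FPKM there and 0.385 to 0.890 in the other samples.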
